A study of Danio rerio with 9 samples.

Results

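The expression of 10 genes of macrophages and of the colony-stimulating factor 1 (Csf1) receptor pathway was followed in zebrafish (Danio rerio) atrioventricular valve tissue after the valve cells had been ablated. The genes were the macrophage markers mpeg1.1, mfap4 and marco, the granulin gene grna, the myeloid transcription factor gene spi1b, the receptor genes csf1ra and csf1rb, and the ligand genes il34, csf1a and csf1b. They were found by their symbol, 1 row each, among 21692 genes of the deposited table. The libraries fall into 3 groups of 3: tissue taken 48 h after ablation, tissue taken 21 d after ablation, and tissue of uninjured fish. Valve cells were ablated with a bath of 2.5 mM metronidazole for 6 h, in single containers in the dark. Metronidazole is a prodrug that becomes toxic in cells carrying a bacterial nitroreductase. The labels name no transgene, promoter, strain or age, and do not say whether uninjured fish were bathed. Tissue was cut from heart cryosections with a laser, each library is described as 2 hearts, and polyA RNA was sequenced. The labels do not state whether the libraries within a group stem from different animals, so the p-values measure the spread between these libraries, which may be technical.

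Macrophages are phagocytes that take up dead cells, debris and microbes and that shape the repair of injured heart tissue. Their survival and growth depend on the receptor tyrosine kinase Csf1r, which is activated by 2 unrelated ligand types, Csf1 and interleukin 34. Zebrafish carry the receptor in duplicate, as csf1ra and csf1rb, and the ligand as csf1a and csf1b, beside a single il34. Both csf1ra and the Csf1 ligands also act in yellow pigment cells of fish, so that receptor alone does not mark a macrophage. The transcription factor PU.1, encoded by spi1b, sets the myeloid fate and activates many genes of the lineage.

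Values are normalised read counts: reads per gene divided by a size factor of the library and rounded. Size factors read from the steps between low values lay between 0.8515 and 1.398, which put the reads assigned to genes between 15985910 and 21505477 per library. Genes of valve matrix and of heart muscle were both found in every library. Matrix genes of valve interstitial cells summed to 74706 to 92971 in the 48 h libraries, 160332 to 181820 in the 21 d libraries and 189118 to 234399 in uninjured libraries. Heart-muscle genes summed to 578457 to 755773 at 48 h, 1038472 to 1236686 at 21 d and 1041978 to 1248461 in uninjured tissue, so the captured tissue held muscle RNA in every library, and less of it in the 48 h libraries. No gene length was at hand, so levels were compared between groups and not between genes.

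The comparison of 48 h with uninjured tissue addressed the early response to the loss of valve cells. The macrophage markers, the granulin gene, spi1b, csf1ra and il34 rose between 3.74-fold and 15.7-fold, while the ligand gene csf1a fell. Of the 10 genes, 9 passed a filter of at least 10 normalised counts in at least 3 libraries. In a limma model over all 17891 genes that passed, with Benjamini-Hochberg adjustment, 7 of the 9 rose and 1 fell. Among all tested genes 10.8% were called in this comparison, 4.44% higher and 6.33% lower. The groups did not overlap for any of the 9 genes, 7 of them higher and 2 lower at 48 h, against 27.2% of all tested genes with groups apart, 13.6% in each direction. Of the 2 lower genes, csf1rb passed the filter on its uninjured and 21 d libraries alone. That favours low values at 48 h, so its separation adds no evidence. The median log2 fold change was 2.22 over the 9 genes and 0.01 over all tested genes. With every column scaled to the same total the median over all tested genes was 0.28 in this comparison and -0.24 between 21 d and 48 h. That turned the calls at 48 h to 1346 higher and 653 lower genes, against 794 and 1133, and those between 21 d and 48 h to 605 and 1281, against 980 and 788. The direction of the 9 genes in these 2 comparisons was kept under it. In bulk tissue, a change in the number of cells that express these genes and a change in transcripts per cell cannot be told apart. Which cell types expressed them was not tested.

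**Figure D1:**
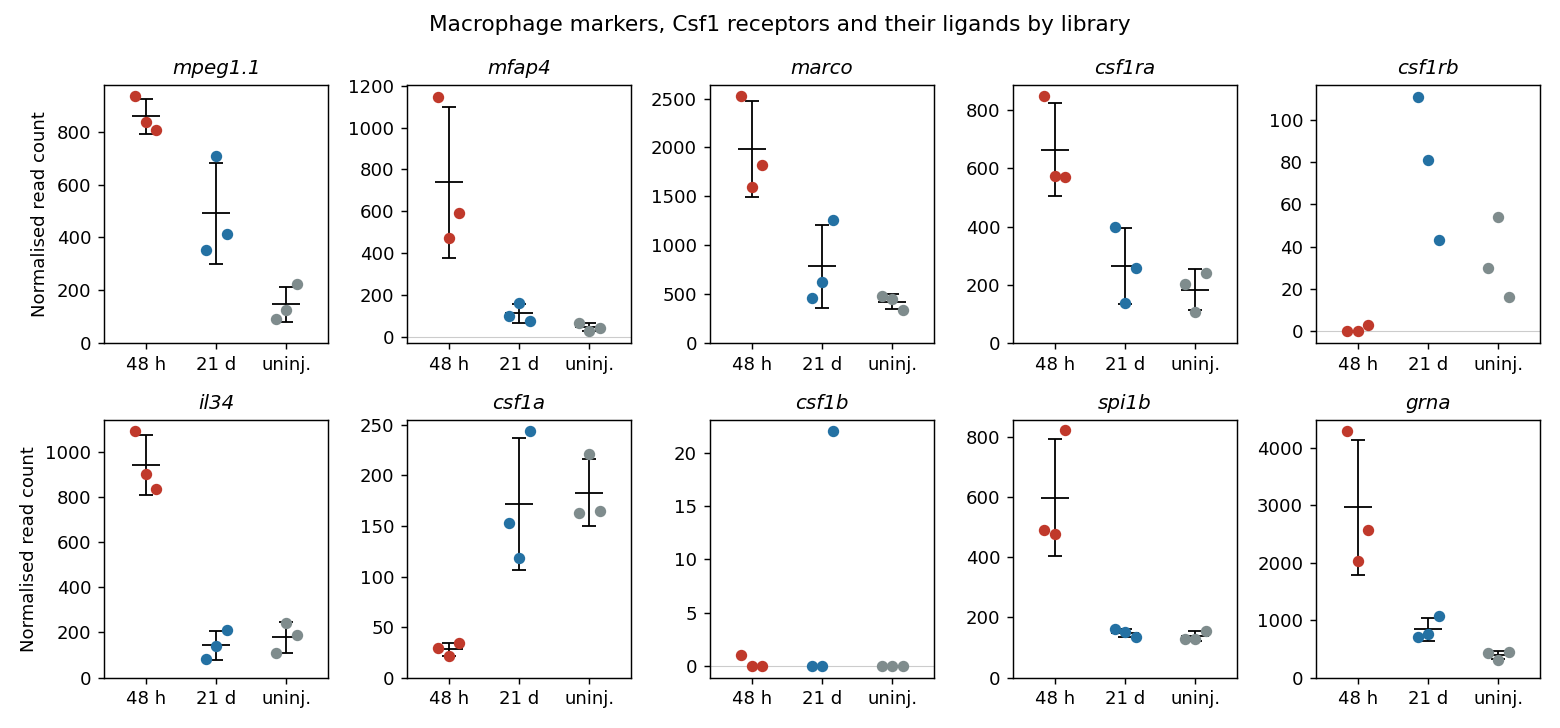
Normalised read count (vertical axis, linear, each panel with its own scale) of each gene in the 3 libraries of the 48 h, 21 d and uninjured groups. Points are libraries, and black marks are the mean and SD of a group, left out for csf1rb and csf1b, which had libraries at 0. The 48 h libraries lie above the other groups for 7 genes and below them for csf1a and csf1rb.

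Among the macrophage markers, the fibrinogen-related gene mfap4, whose promoter is used to label macrophages in zebrafish, had the largest fold change. It had 1148, 473 and 591 normalised counts in the 48 h libraries, against 67, 27 and 43 in uninjured libraries. The groups were far apart, and 48 h library 1 was the highest by a wide margin. The log2 fold change was 3.97 (SE 0.53, adjusted p = 1.3e-05). The pore-forming protein gene mpeg1.1, the standard macrophage marker in this species, had 935, 836 and 808 at 48 h, against 92, 123 and 222 in uninjured tissue. The 48 h libraries were close together, with a mean of 860 ± 66.7 (SD, n = 3), while the uninjured libraries, with a mean of 146 ± 67.9 (SD, n = 3), spread more widely for their level. The log2 fold change was 2.65 (SE 0.37, adjusted p = 2.0e-05). The class A scavenger receptor gene marco, whose product binds bacteria and modified lipids, had 2530, 1592 and 1823 at 48 h, against 478, 451 and 334 in uninjured tissue. It rose 4.66-fold (log2 fold change 2.22, SE 0.31, adjusted p = 2.8e-05).

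The secreted and lysosomal growth factor gene grna had 4287, 2030 and 2567 normalised counts at 48 h, against 434, 310 and 443 in uninjured tissue. Library 1 was again the highest of its group, and the groups were far apart (7.19-fold, log2 fold change 2.85, SE 0.28, adjusted p = 1.4e-07). The PU.1 gene spi1b had 491, 478 and 821 at 48 h, against 128, 128 and 156 in uninjured tissue. Here 48 h library 3 was the highest, and the fold change was 4.2 (log2 fold change 2.07, SE 0.39, adjusted p = 8.6e-04).

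Of the 2 receptor genes, csf1ra rose, while csf1rb had lower values at 48 h and did not pass. The receptor gene csf1ra had 850, 574 and 569 normalised counts at 48 h, against 203, 107 and 241 in uninjured tissue. It rose 3.74-fold (log2 fold change 1.903, SE 0.42, adjusted p = 0.0033), and this call was lost when the variance was not modelled as a function of expression (adjusted p = 0.082). Its duplicate csf1rb had 0, 0 and 3 at 48 h, against 30, 54 and 16 in uninjured tissue. The 48 h libraries all lay below the uninjured ones, although they were sequenced to a similar depth. By its size factor, the value of 3 in 48 h library 3 stood for about 4.19 reads, and a 0 allows up to 3 reads, or 3.003 and 2.693 normalised counts in 48 h libraries 1 and 2. These limits cover counting error only. The fitted log2 fold change of csf1rb was -4.27 (95% interval -7.32 to -1.22) and did not pass (adjusted p = 0.066). That estimate depends on the number added before taking logs and was -2.59 with 5 in place of 1. The call was gained under quantile normalization (adjusted p = 0.038), with no robust step (0.046) and with no variance trend (0.023). The gene passed the filter on its uninjured and 21 d libraries alone.

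**Figure D2:**
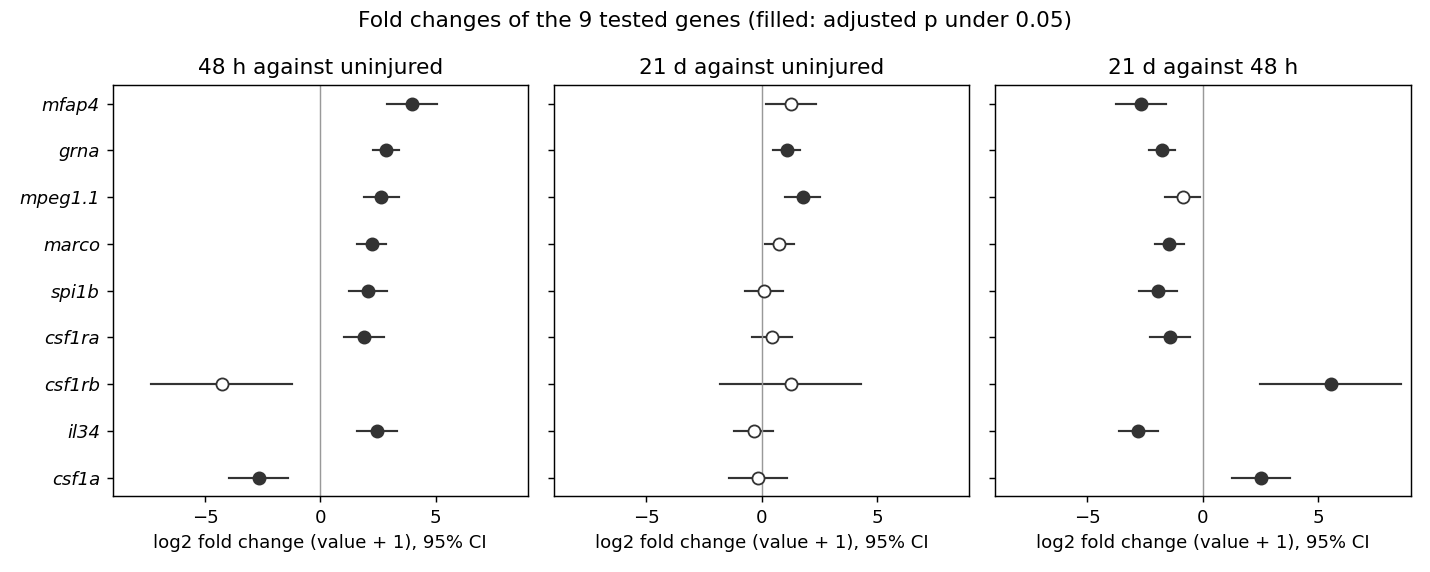
Log2 fold changes from the limma model (horizontal axis, on the scale of value + 1) with 95% confidence intervals for the 9 tested genes in the 3 comparisons. Filled points had an adjusted p under 0.05. At 48 h against uninjured tissue il34 stood at 2.46 and csf1a at -2.68, and at 21 d against uninjured tissue only mpeg1.1 and grna of the 9 passed.

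The ligand genes went apart as well. The cytokine gene il34, whose product attracts and sustains tissue macrophages, had 1091, 899 and 837 normalised counts at 48 h, against 107, 243 and 187 in uninjured tissue. The lowest 48 h library was well above the highest uninjured one, and il34 rose 5.5-fold (log2 fold change 2.46, SE 0.41, adjusted p = 2.1e-04). The ligand gene csf1a had 29, 21 and 34 at 48 h, against 163, 221 and 165 in uninjured tissue. It was 6.4-fold lower (log2 fold change -2.68, SE 0.61, adjusted p = 0.0047), with all 3 libraries of 48 h below all 3 uninjured ones. Its duplicate csf1b had 1, 0 and 0 at 48 h and was listed at 0 in all 3 uninjured libraries. At 21 d it had 0, 0 and 22, so 1 library carried nearly all of its signal. It did not pass the filter and was not tested in the model above. With no filter, its log2 fold change against uninjured tissue was 0.33 at 48 h (adjusted p = 0.945) and 1.51 at 21 d (adjusted p = 0.76). The SE of both was 1.39, so at this depth no difference in csf1b was detectable.

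The comparison of 21 d with uninjured tissue asked what differed once the valve had had weeks to regrow. Of the 9 tested genes, mpeg1.1 and grna rose and 0 fell, with 7 that did not pass. Among all tested genes 1.45% were called in this comparison, 0.52% higher and 0.933% lower. The groups were apart, all with 21 d higher, for mpeg1.1, grna and mfap4, against 17.9% of all tested genes with groups apart, 8.44% higher and 9.46% lower. The median log2 fold change was 0.78 over the 9 genes and 0.02 over all tested genes.

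The marker mpeg1.1 had 352, 709 and 414 normalised counts at 21 d, against 92, 123 and 222 in uninjured tissue. Library 2 was the highest of the 21 d group, and all 3 lay above the uninjured range (3.43-fold, log2 fold change 1.78, SE 0.37, adjusted p = 0.011). The call ended with an adjusted p of 0.0656 and 0.0535 on dropping uninjured library 1 or 2, with 0.104 on dropping 21 d library 2, and with 0.246 where no variance trend was used. The granulin gene grna had 703, 758 and 1070 at 21 d, against 434, 310 and 443 in uninjured tissue, a 2.12-fold rise (log2 fold change 1.08, SE 0.28). Its adjusted p of 0.049 was just under the threshold, and it was lost without any one of the uninjured or 21 d libraries (adjusted p = 0.079 to 0.248), without 48 h library 3 (0.062), and under other scalings and variance models (0.0696 to 0.426). The marker mfap4 had 98, 162 and 74 at 21 d, against 67, 27 and 43 in uninjured tissue, and its log2 fold change of 1.28 missed the threshold (adjusted p = 0.304).

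For the other 6 tested genes the 21 d and uninjured libraries overlapped. The scavenger receptor gene marco had 461, 627 and 1258 at 21 d, against 478, 451 and 334, with library 1 inside the uninjured range and library 3 far above it (log2 fold change 0.78, adjusted p = 0.285). The receptor gene csf1ra had 398, 136 and 257 at 21 d, against 203, 107 and 241 (0.47, adjusted p = 0.723). The PU.1 gene spi1b had 161, 151 and 135 at 21 d, against 128, 128 and 156, with a log2 fold change of 0.12 and a 95% interval from -0.70 to 0.93. For il34 the values were 83, 138 and 211 at 21 d, against 107, 243 and 187, with an interval of the log2 fold change from -1.18 to 0.51. For csf1a they were 153, 118 and 244 at 21 d, against 163, 221 and 165, with an interval from -1.41 to 1.12. The receptor gene csf1rb had 111, 81 and 43 at 21 d, against 30, 54 and 16, and these groups overlapped (1.27, interval -1.78 to 4.32, adjusted p = 0.801). The intervals of the last 2 genes leave room for changes of more than 2-fold in either direction.

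Between 21 d and 48 h, 8 of the 9 genes differed, 6 lower and 2 higher at 21 d. Among all tested genes 9.88% were called in this comparison, 4.4% lower and 5.48% higher. The ligand il34 was 6.93-fold lower at 21 d (log2 fold change -2.79, SE 0.41, adjusted p = 5.6e-05), mfap4 6.43-fold lower (adjusted p = 0.0013), spi1b 3.87-fold lower (adjusted p = 0.0017) and grna 3.39-fold lower (adjusted p = 1.2e-04). The scavenger receptor gene marco was 2.72-fold lower (adjusted p = 0.0032). With no variance trend, the calls of marco (0.119) and grna (0.0516) were lost. The receptor gene csf1ra was 2.7-fold lower (adjusted p = 0.028), a call that was lost without any one 48 h library (0.109, 0.0524 and 0.0595), without 21 d library 2 (0.17) or 3 (0.0645) and with no variance trend (0.168). The ligand gene csf1a was 5.79-fold higher at 21 d (log2 fold change 2.53, SE 0.61, adjusted p = 0.0082), which was lost without 21 d library 3 (0.065). The receptor gene csf1rb was higher at 21 d, with 111, 81 and 43, against 0, 0 and 3 at 48 h (adjusted p = 0.016). That call was lost without 21 d library 1 (0.082) or 2 (0.061). It is counted among the 8, although csf1rb passed the filter on its uninjured and 21 d libraries alone. The size of its change depends on the number added before taking logs. The marker mpeg1.1 was the exception. It had 352, 709 and 414 at 21 d, against 935, 836 and 808 at 48 h, with groups apart, yet its log2 fold change of -0.87 missed the threshold (adjusted p = 0.149). The 3 comparisons share libraries, so a gene's calls in them are not independent of each other.

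Whether pairs of these genes moved in step was asked with their ratio within each library. For 10 ratios, an exact permutation test compared the 3 groups at once, with p-values adjusted over the 10, and 3 ratios passed. The ratio of il34 to csf1a was 5.04 ± 0.41 on the log2 scale at 48 h, -0.29 ± 0.55 at 21 d and -0.10 ± 0.44 in uninjured tissue (SD, n = 3 each). The 48 h libraries stood at 5.19, 5.35 and 4.58, and the highest of the other 6 libraries was at 0.22. Its exact permutation adjusted p of 0.05 was not under the threshold. A p over 3 groups also depends on how the 21 d and uninjured libraries lie, however far apart the 48 h libraries stand. The ratio of il34 to csf1a passed with 5 added to the values in place of 1 (exact permutation adjusted p = 0.042). The ratio of csf1ra to csf1rb was 8.69 at 48 h, 1.71 at 21 d and 2.51 in uninjured tissue (exact permutation adjusted p = 0.048). With csf1rb at or near 0 at 48 h, the size of that ratio depends on the number added. The gene csf1rb also passed the filter on its uninjured and 21 d libraries alone. The p of that ratio is therefore no evidence on whether the receptor genes moved in step.

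The ratio of spi1b to mpeg1.1 differed between the groups (exact permutation adjusted p = 0.048). It was -0.57 ± 0.52 at 48 h, -1.65 ± 0.55 at 21 d and 0.01 ± 0.49 in uninjured tissue on the log2 scale (SD, n = 3 each). The 21 d libraries were at -1.12, -2.22 and -1.61, below all others, whereas those of 48 h and uninjured tissue overlapped. The ratio was lowest in 21 d library 2, the library with the highest mpeg1.1. The ratio of il34 to csf1b was the third that passed (exact permutation adjusted p = 0.048). The gene csf1b had not passed the filter. With csf1b at 0 in 7 of 9 libraries, the ratio follows il34 alone in those 7. Its p therefore does not show whether il34 and csf1b moved in step. It was lowest in 21 d library 3, where csf1b had 22 and il34 had 211, the highest il34 of the 21 d group. The low ratio in that library came from csf1b, so the group pattern of the ratio is not that of il34 alone. The ratios of grna, marco, mfap4 and csf1ra to mpeg1.1 did not pass, with exact permutation adjusted p-values of 0.333, 0.343, 0.137 and 0.299. Those of csf1rb to mpeg1.1 and of csf1a to csf1b did not pass either (exact permutation adjusted p = 0.05 and 0.143). Both also hold a gene at 0 in some libraries. Without any one uninjured or 48 h library 0 ratios passed, and without 21 d library 1, 2 or 3 the number was 6, 1 and 3.

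**Figure D3:**
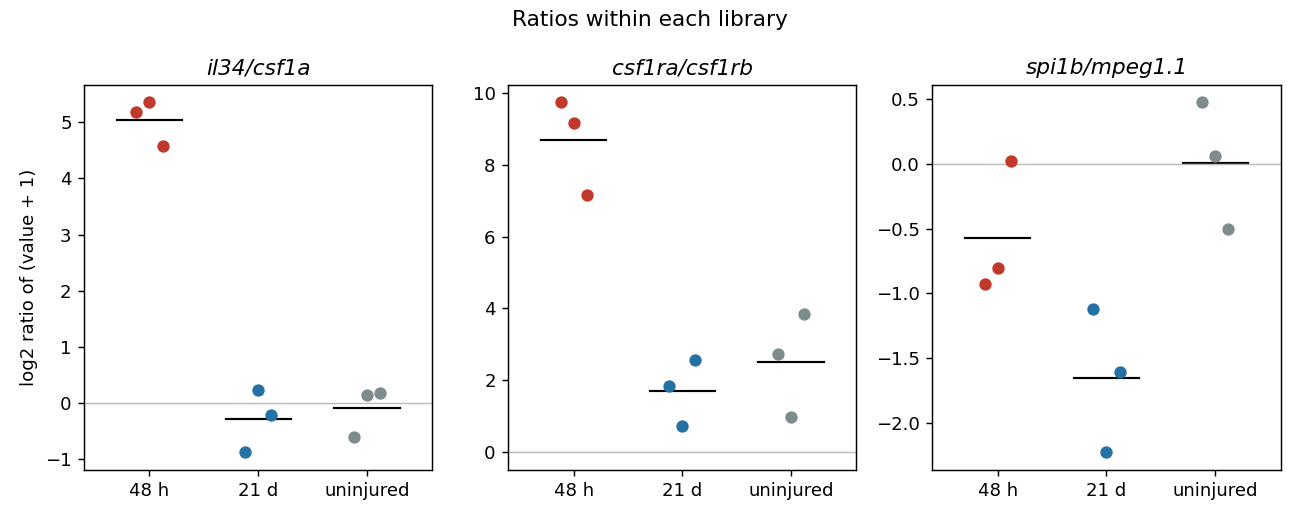
Log2 ratio of 2 genes within each library (vertical axis, value + 1 in numerator and denominator) for il34 over csf1a, csf1ra over csf1rb and spi1b over mpeg1.1. Points are libraries and bars are group means. The 48 h libraries stand apart for the first 2 ratios, and the 21 d libraries lie lowest for the last one.

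Other genes of the pathway and the lineage were read from lists that leave out the 10 genes. List counts stand against 4.44% of all tested genes called higher and 6.33% lower at 48 h, and 0.52% and 0.933% at 21 d. Of 42 tested further macrophage genes, 18 were called higher and 0 lower at 48 h, with a median log2 fold change of 1.69. Not every gene of the list went up. The gene timd4 had 293, 296 and 184 at 48 h, against 382, 458 and 371 in uninjured tissue. For itgam the values were 442, 95 and 421 at 48 h, against 506, 518 and 460. Both lay wholly below uninjured tissue but were not called. The complement genes c1qb and c1qc, made largely by macrophages, rose 7.1-fold and 5.39-fold (adjusted p = 1.8e-05 and 1.3e-05). The galectin-3-binding protein gene lgals3bpb rose 6.66-fold, with 940, 1077 and 740 at 48 h, against 188, 66 and 200 in uninjured tissue (adjusted p = 2.5e-05). The tandem duplicate mpeg1.2 had 829, 373 and 546 at 48 h, against 197, 208 and 132, and rose 3.14-fold (adjusted p = 0.011). That call was lost without uninjured library 3 (0.0594) or 48 h library 1 (0.0704), and reads of tandem copies may be shared between them. The lipoprotein gene apoeb had 662, 1777 and 385 at 48 h, against 406, 872 and 765 in uninjured tissue (adjusted p = 0.808). The microglial receptor gene p2ry12 had 47, 0 and 16 at 48 h and was listed at 0 in every uninjured library (adjusted p = 0.314). The list's count of higher genes was 11 without uninjured library 3 and with no variance trend, and its summed level was 26181 to 28748 at 48 h, 17622 to 21849 at 21 d and 14451 to 16403 in uninjured libraries. The mean sum was 19292 at 21 d and 15364 in uninjured libraries. Within it, cd74b had means of 2404 and 1069, and cd74a of 1804 and 1043. The 21 d sum therefore does not show that the genes of the list rose together.

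At 21 d against uninjured tissue, 3 of these 42 macrophage genes rose and 0 fell. They were cd74b, an invariant chain gene of antigen presentation, lgals3bpb and c1qc. For cd74b the values were 2267, 2641 and 2303 at 21 d, against 888, 1116 and 1204 in uninjured tissue (2.26-fold, adjusted p = 0.0039). At 48 h cd74b had 1217, 1195 and 1368 and did not differ detectably from uninjured tissue (log2 fold change 0.25, adjusted p = 0.538), and it was higher at 21 d than at 48 h (adjusted p = 0.0049, but 0.0506 with equal column totals and 0.0877 with no variance trend). Its paralogue cd74a was higher at 21 d than at 48 h too (2.88-fold, adjusted p = 0.0044), but was not called at 21 d against uninjured tissue. It had 1492, 1697 and 2224 at 21 d, 315, 713 and 1044 at 48 h and 1112, 932 and 1086 in uninjured tissue. Without 48 h library 3, cd74a was called lower at 48 h than in uninjured tissue (limma adjusted p = 0.023). For lgals3bpb the 21 d values were 432, 620 and 778 (4.35-fold over uninjured, adjusted p = 0.0039). The calls of cd74b and lgals3bpb at 21 d held without each library in turn and were lost with no variance trend (0.165 and 0.23). That of c1qc (adjusted p = 0.036) was lost without any one uninjured library (0.062, 0.167 and 0.062) and without 21 d library 1 (0.107) or 3 (0.214).

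Granulins formed a group of their own. Besides grna, the granulin genes grn1 and grn2 rose at 48 h, and grnb did not. For grn1 the values were 2449, 1211 and 2807 at 48 h, against 311, 181 and 122 in uninjured tissue (10.6-fold, adjusted p = 9.1e-07). For grn2 they were 557, 261 and 308 at 48 h, against 13, 23 and 35 (15.5-fold, adjusted p = 0.0015). For grnb they were 463, 1266 and 962 at 48 h, against 835, 698 and 608, with overlapping groups (log2 fold change 0.22, adjusted p = 0.731). The granulin receptor gene sort1b rose with 371, 361 and 268 at 48 h, against 61, 45 and 142 (adjusted p = 0.0058), while its duplicate sort1a did not pass (adjusted p = 0.94). At 21 d sort1a was lower, with 213, 148 and 198, against 507, 694 and 447 in uninjured tissue (adjusted p = 0.037), a call lost without any one 21 d or uninjured library (0.0689 to 0.191), under quantile normalization (0.0502), with no robust step (0.0559) and with the replicate block (0.0505). Reads of similar granulin genes may have been divided among them.

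Myeloid transcription factors other than spi1b rose in 4 and fell in 1 of 23 tested genes at 48 h, and 0 passed at 21 d against uninjured tissue. At 48 h 4.44% of all tested genes were called higher and 6.33% lower, so 1 lower gene of 23 was near the share of all genes. The duplicate spi1a had 1016, 591 and 760 at 48 h, against 262, 243 and 312 (2.84-fold, adjusted p = 0.0023), so both PU.1 genes rose. The interferon regulatory factor gene irf8, needed for macrophage fate in zebrafish, had 590, 618 and 407 at 48 h, against 110, 207 and 185 (3.26-fold, adjusted p = 0.0037). The Maf factor genes mafba and mafbb rose (adjusted p = 0.018 and 0.036), and the C/EBP factor gene cebpd fell (adjusted p = 0.026). Without one library the call of mafba was lost for uninjured library 2 or 3 or 48 h library 1 or 2 (0.061 to 0.0985), that of mafbb for uninjured library 2 or 3 or 48 h library 1 or 3 (0.0618 to 0.17), and that of cebpd for uninjured library 1 or 3 or 48 h library 1 (0.0743 to 0.09). The call of cebpd was also lost under both other scalings (0.142 and 0.202) and with only the compared groups in the fit (0.0658). That of mafbb was lost under quantile normalization, with no robust step, with the replicate block and with only the compared groups in the fit (0.0518 to 0.0533). Both irf8 and mafbb stand on the macrophage list too. The count of higher genes was 2 without uninjured library 2 or 3 or 48 h library 1.

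Of 31 tested genes that act downstream of the Csf1 receptor, 9 rose and 3 fell at 48 h, against 0 higher and 1 lower at 21 d. The shares over all tested genes at 48 h were 4.44% higher and 6.33% lower, so 3 lower genes of 31 were not far from the latter. The Src-family kinase genes hck and lyn rose 5.45-fold and 10.6-fold (adjusted p = 4.5e-05 and 5.3e-04), and the lipid phosphatase gene inpp5d rose 6.4-fold (adjusted p = 1.0e-04). These 3 genes are expressed mainly in blood cells. The 3 that fell were cbl and cblb, which encode ubiquitin ligases that remove activated receptors from the surface, and the phosphoinositide kinase subunit gene pik3r1. For cbl the values were 380, 330 and 542 at 48 h, against 846, 1053 and 1068 in uninjured tissue (log2 fold change -1.27, adjusted p = 0.0016). For cblb they were 629, 1026 and 846 at 48 h, against 1423, 1493 and 1538 (-0.86, adjusted p = 0.027), a call lost without any one uninjured library (0.059, 0.077 and 0.083), without 48 h library 1 (0.116) or 3 (0.056), with equal column totals (0.145), quantile normalization (0.0568) and no variance trend (0.152). It was also the gene called lower at 21 d (adjusted p = 0.037), which was lost without any one uninjured or 21 d library (0.0746 to 0.193) and under both other scalings (0.0502 and 0.0681).

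Related receptors did not follow csf1ra. The platelet-derived growth factor receptor genes pdgfra and pdgfrb, of the same receptor class and typical of mesenchymal cells, fell at 48 h (log2 fold change -1.25 and -1.01, adjusted p = 1.7e-04 and 0.0063). The call of pdgfrb was lost with equal column totals (0.0555) and no variance trend (0.112). Both were also lower at 21 d than in uninjured tissue (adjusted p = 0.026 and 0.0077). The 21 d call of pdgfra was lost without any one uninjured library or 21 d library 2 or 3 (0.0667 to 0.139) and under both other scalings (0.0558 and 0.0815), and that of pdgfrb without uninjured library 1 (0.0504) or 21 d library 2 (0.0528). The stem-cell factor receptor gene kita and the progenitor receptor gene flt3 had at most 58 normalised counts in any library and did not pass (adjusted p = 0.381 and 0.33). The receptor phosphatase and syndecan families hold other reported binding partners of interleukin 34. Of these families, 4 genes were tested (ptprz1a, ptprz1b, sdc2 and sdc4), not all of them reported partners themselves. The receptor phosphatase gene ptprz1b fell, with 126, 373 and 283 at 48 h, against 470, 1453 and 2391 in uninjured tissue (adjusted p = 0.035). That call was lost without uninjured library 2 (0.103), 48 h library 1 (0.116) or 3 (0.092) or 21 d library 1 (0.058), with no filter (0.067), with only the compared groups in the fit (0.061) and with no variance trend (0.117). Of 8 tested osteoclast genes, 3 rose and 0 fell at 48 h, where 4.44% of all tested genes were called higher. The count was 1 without 48 h library 2 or with no variance trend and 2 without uninjured library 1. The receptor gene tnfrsf11a, which encodes RANK, had 1139, 1163 and 1699 at 48 h, against 563, 448 and 400 in uninjured tissue (2.81-fold, adjusted p = 0.0016). At 21 d it had 184, 181 and 144 and was below uninjured tissue (log2 fold change -1.46, adjusted p = 0.012), a call lost without uninjured library 1 (0.074) or 21 d library 3 (0.062). The other 2 that rose encode the collagen-cleaving protease ctsk and the gelatinase mmp9. For ctsk the values were 1940, 2602 and 1948 at 48 h, against 1288, 1067 and 951 in uninjured tissue (adjusted p = 0.0083), a call lost without 48 h library 2 (0.0554) and with no variance trend (0.127). For mmp9, which is also on the neutrophil list, they were 244, 1461 and 855 at 48 h, against 92, 190 and 37 (adjusted p = 0.011). That call was lost without uninjured library 1 (0.0524) or 3 (0.0536) or 48 h library 2 (0.0581), and with no variance trend (0.132). The phosphatase genes acp5a and acp5b stayed at or under 58 normalised counts in every library and did not pass.

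**Figure D4:**
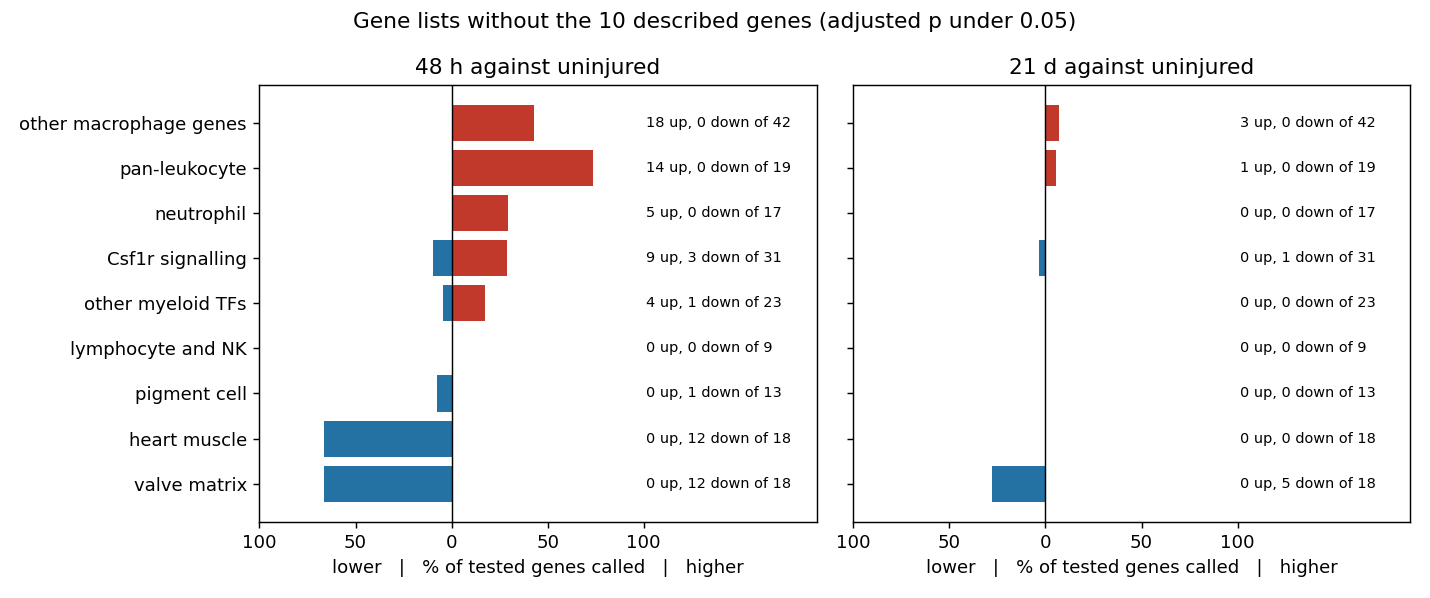
Share of the tested genes of each list (horizontal axis, percent) that were called higher (red, to the right) or lower (blue, to the left) at 48 h and at 21 d, each against uninjured tissue, with the 10 described genes left out. Counts stand beside the bars. At 48 h 18 of 42 further macrophage genes and 14 of 19 pan-leukocyte genes were higher, and at 21 d 3 and 1 were.

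Genes of white blood cells in general and of neutrophils were high beside the macrophage genes at 48 h, while genes of red cells were not. Over all tested genes 4.44% were called higher and 6.33% lower at 48 h. Of 15 tested erythroid genes, 1 rose and 3 fell at 48 h (2 to 7 fell over the alternatives), with a summed level of 315188 to 794827 at 48 h, 1163464 to 1691074 at 21 d and 767051 to 1782408 in uninjured libraries. Of 8 thrombocyte genes, 1 rose and 2 fell at 48 h, with a median log2 fold change of 0.32. The fibronectin gene fn1b rose (1.14, adjusted p = 6.1e-06), while f13a1a.1 (-8.28, 0.0086) and gp1bb (-0.79, 0.043) fell. With no variance trend the calls of fn1b (0.0527) and gp1bb (0.281) were lost. That of gp1bb was also lost without any one 48 h library (0.053 to 0.161) and under both other scalings (0.155 and 0.24). The summed level of the list was nevertheless higher at 48 h, with 98912 to 119686 at 48 h, 46351 to 63554 at 21 d and 56100 to 71521 in uninjured libraries. That sum does not show that the genes of the list rose together. Pan-leukocyte genes, which macrophages share with other white cells, rose in 14 and fell in 0 of 19 tested genes. Their summed level was 13967 to 18722 at 48 h, 4837 to 7116 at 21 d and 3354 to 4418 in uninjured libraries. The leukocyte plastin gene lcp1 had 3851, 2022 and 3885 at 48 h, against 505, 415 and 625 in uninjured tissue (adjusted p = 3.1e-07). The leukocyte phosphatase gene ptprc (CD45) had 1787, 1589 and 1528 at 48 h, against 300, 247 and 496 (adjusted p = 1.4e-05). It had 555, 1271 and 1117 at 21 d, 2.77-fold over uninjured tissue (adjusted p = 0.013), and that call was lost without uninjured library 1 (0.066) or 2 (0.0925) or 21 d library 2 (0.114) or 3 (0.0899). Neutrophil genes rose in 5 and fell in 0 of 17 at 48 h, with a median log2 fold change of 2.94. The smallest adjusted p of the list was that of adam8a (log2 fold change 4.88, adjusted p = 3.1e-08). The gene npsn was called too (2.58, adjusted p = 0.021). That call was lost without uninjured library 1 or 2 or 48 h library 1 or 3 (0.0658 to 0.1105). Library weights (0.0534) and no variance trend (0.16) also removed it. The summed level of the list was 24932 to 50660 at 48 h, 3458 to 7684 at 21 d and 5121 to 8033 in uninjured libraries. Most of that sum at 48 h was timp2b, a protease inhibitor gene that other cells use too, with 13361, 22882 and 39842 at 48 h, against 1703, 1292 and 1129 in uninjured libraries. Its call (adjusted p = 0.029) was lost without any one uninjured library or 48 h library 2 or 3 (0.0757 to 0.0899). The neutrophil enzyme gene mpx had 262, 123 and 164 at 48 h, against 0, 0 and 119 in uninjured tissue (adjusted p = 0.026, lost without any one 48 h library, without uninjured library 1 or 2, with library weights or with only the compared groups in the fit, at 0.05 to 0.15), and the lysozyme gene lyz had at most 53 in any library. The count of higher neutrophil genes was 2 to 4 when any one 48 h or uninjured library was left out. The part of neutrophils in the changes of genes that both cells use was not tested.

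Of 9 tested lymphocyte genes 0 were called at 48 h, with summed levels of 144 to 586 at 48 h, 96 to 176 at 21 d and 96 to 436 in uninjured libraries. Most of the highest sums was the T-cell receptor partner gene cd28, which had 114, 0 and 511 at 48 h, 0 in every 21 d library, and 53, 390 and 24 in uninjured libraries. Pigment-cell genes were examined because csf1ra acts in that lineage. Of 13 tested, 0 rose and 1 fell at 48 h, where 4.44% of all tested genes were called higher and 6.33% lower. Their sum was 2201 to 2860 at 48 h, 3473 to 3647 at 21 d and 3532 to 3585 in uninjured libraries, but it was mostly mycbp2, with means of 2116 at 48 h, 3105 at 21 d and 2751 in uninjured tissue. The one that fell was the yellow-pigment enzyme gene gch2, with 0, 62 and 0 at 48 h, against 262, 436 and 499 in uninjured tissue (adjusted p = 0.0015). The pigment genes aox5 and pax7a had at most 126 and 35 normalised counts in any library. On the same list, the transcription factor gene tfec had 95, 162 and 52 at 48 h, against 1, 6 and 7 in uninjured tissue (adjusted p = 0.098). The melanocyte transcription factor gene mitfa had 84, 34 and 16 at 48 h and was listed at 0 in every uninjured and 21 d library (adjusted p = 0.055). Both lay wholly above uninjured tissue, and tfec is also on the list of myeloid factors. With 5 added to the values both were called higher (0.0241 and 0.0407), and mitfa also with equal column totals (0.0457), no filter (0.0237), no robust step (0.0448) or no variance trend (0.0048). The part of pigment cells in the level of csf1ra was not tested. At 48 h 12 of 18 tested heart-muscle genes were called lower and 0 higher, and the matrix genes of valve interstitial cells gave the same counts. The muscle count was 6 lower and 2 higher with equal column totals or quantile normalization, 8 and 2 with no robust step, 8 and 1 without uninjured library 1, and 2 and 0 with no variance trend. The matrix count stayed between 10 and 12 over the alternatives. Each value is scaled by a size factor of its library and is therefore relative to the other genes. The part of this loss in the rise of the macrophage genes was not tested. At 21 d 0 of the muscle genes passed against uninjured tissue, while 5 matrix genes fell, among them elnb and fbln5 of elastic fibres (log2 fold change -2.53 and -2.03). The count of 5 was 2 without uninjured library 3 or 21 d library 1, 3 without uninjured library 2 or 21 d library 3, 7 over the fit of the compared groups alone and 0 with no variance trend.

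With no variance trend, further calls of genes named from the lists were lost. At 48 h these were sort1b (adjusted p = 0.0618), mpeg1.2 (0.134), mafba (0.156), mafbb (0.126), cebpd (0.223), cbl (0.0536), pik3r1 (0.114), mpx (0.177) and gch2 (0.0692). At 21 d against uninjured tissue they were c1qc (0.313), sort1a (0.326), cblb (0.322), pdgfra (0.352), pdgfrb (0.274), ptprc (0.322), tnfrsf11a (0.159), elnb (0.0526) and fbln5 (0.255), and against 48 h cd74a (0.122).

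Across the 9 libraries, the genes most like mpeg1.1 among 10772 with a mean of at least 100 were ptprc (Pearson r = 0.97 on the log2 scale), the phosphatase subunit gene ppp2r5cb (0.96), CU984600.1 (0.96), the chemerin receptor gene cmklr1 (0.95) and zgc:152658 (0.95). The mean of each of these 5 at 21 d lay between those of the other groups, as for mpeg1.1. Genes picked for their likeness to mpeg1.1 tend to share its pattern, so this adds no evidence. Those most like il34 were cacybp (0.99), si:dkey-8k3.2 (0.98), the RNA-binding protein gene ilf2 (0.98), the collagen chaperone gene serpinh1b (0.98) and the mitotic kinase gene plk1 (0.98). None of these 5 is on the macrophage or leukocyte lists. Those most like csf1a were si:ch211-251j10.3 (0.98), the threonine dehydrogenase gene tdh (0.98), csrnp1a (0.98), the cAMP-responsive modulator gene crema (0.97) and the anion transporter gene slc26a5 (0.97). For crema the values were 787, 812 and 1270 at 48 h, 10659, 7479 and 9036 at 21 d and 12364, 12179 and 10057 in uninjured tissue. These correlations describe 9 libraries that share 3 group levels, and carry no test.

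Within the 9 tested genes, the correlation over the same 9 libraries was highest for mfap4 with grna (0.96) and marco with grna (0.95). It was negative between csf1a and spi1b (-0.93), csf1rb and il34 (-0.93) and csf1a and mfap4 (-0.92), and positive between csf1a and csf1rb (0.90). The correlations with csf1rb rest on its 48 h values of 0, 0 and 3. That gene passed the filter on its uninjured and 21 d libraries alone, so they add no evidence. The pair csf1ra and mpeg1.1 stood at 0.67. The correlation of il34 was positive with spi1b (0.89), marco (0.85), grna (0.82), mfap4 (0.78), csf1ra (0.69) and mpeg1.1 (0.65).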

How the data were processed

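RNA of 9 laser-captured libraries was sequenced. Per the submitters' processing notes, FastQC 0.11.8, Trimmomatic 0.33, STAR 2.6.0c, featureCounts 1.6.0 and DESeq2 1.18.1 were used, with GRCz11. The deposited values, handled as a score, are whole numbers that match read counts divided by a size factor and rounded by the authors. Size factors were estimated here from the spacing of low values. Whole reads could not be recovered for every library, so no count test was run.

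Values were taken as log2(value + 1), and genes with at least 10 in at least 3 libraries were tested. A fold change on that scale understates the change of low genes. All 3 groups were fitted together with limma 3.58.1 (R 4.3.3), with a variance trend and a robust step, and p-values were adjusted by Benjamini-Hochberg over all tested genes at 0.05. Permutation tests used Python 3.11.15. The model was tested on simulated data. The members and lists were chosen with earlier results of these data known. By rule, all 10 genes are described. From each list, up to 3 passing genes with the smallest adjusted p at 48 h and up to 2 at 21 d, each against uninjured tissue, could be named, besides mpx, lyz, gch2, aox5, pax7a, p2ry12, apoeb, mpeg1.2, grn1, grn2, spi1a, irf8, ptprc, lcp1, ptprz1b, kita and flt3. Others (grnb, sort1b, mafba, mafbb, cebpd, cbl, pik3r1, cd74a, acp5a, acp5b, timp2b, mycbp2, tfec, mitfa, cd28, timd4, itgam, ptprz1a, sdc2, sdc4) were named after their values were seen. Likeness was ranked among genes with a mean of at least 100. The labels give no batch. No sequence is shown, since none was at hand for this build.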

Additional observations from a re-analysis of the deposited data

How the results depend on the processing

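Over the alternatives, 454 of 486 recomputed fold changes of the 9 tested genes kept direction and side of the threshold, 27 lost and 3 gained a call, and 2 turned sign. The 2 were uncalled values at 21 d against uninjured tissue: il34, at 0.0100 without 21 d library 1 in a range from -0.66 to 0.01, and csf1a, at 0.0927 without 21 d library 2 in a range from -0.43 to 0.09. The log2 ratio of grna to mpeg1.1 at 48 h against uninjured tissue turned to -0.0625 without uninjured library 3 and -0.0426 without 48 h library 1, in a range from -0.06 to 0.55. With no variance trend 684, 44 and 452 of all genes were called in the comparisons of 48 h and of 21 d with uninjured tissue and of 21 d with 48 h, and 0 and 5 of the 9 genes in the last 2. Of the 9 genes, 1 was called at 21 d against uninjured tissue with equal column totals, quantile normalization or no robust step. With only those groups in the fit, 427 of all genes were called there. The cause was not tested. With 5 added to the values, 6 ratios passed. Leaving out single libraries gave 1382 to 1909, 107 to 330 and 1144 to 1806 called genes, 8 to 8, 0 to 2 and 6 to 8 of the 9 genes, and 0 to 6 ratios. Libraries with the same replicate number did not deviate together (r from -0.02 to 0.03, and from -0.04 to 0.05 for different numbers). No pairing by number was seen, but deviations within groups of 3 libraries cannot exclude one. With the replicate block 1918, 239 and 1710 genes and 8, 2 and 8 of the 9 were called. Depth limits csf1b and csf1rb, which had libraries at 0. List counts and calls of list genes were recomputed as alternatives chosen after seeing the data.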
